A study of Drosophila melanogaster with 8 samples.

Results

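The 8 genes described here, png, plu, gnu, wisp, orb, cort, fzy and sra, encode regulators of egg activation in Drosophila melanogaster, and they were chosen by gene symbol from the 15598 genes that every expression table lists. All 8 were found, each at 1 locus. mRNA-seq was carried out on embryo collections from 2 crosses, and the authors deposited 1 table of FPKM values (fragments counted for a gene, scaled to its transcript length and to library size) for each of 8 conditions. Maternal NSUN2 knockout embryos, laid by NSUN2-/- virgins crossed with w1118 males, were collected at 0-0.5 h, 2-3 h and 4-5 h after egg laying. Wild-type embryos, from w1118 virgins crossed with w1118 males, were collected at 0-0.5 h, 1-2 h, 2-3 h, 3-4 h and 4-5 h. Both genotypes carry the strain label WIII8, and each collection pooled 70 to 100 embryos of both sexes. Nsun2 lies on the X chromosome, so sons of NSUN2-/- mothers carry only the mutant allele, while daughters carry a wild-type copy from the father. The mutation was made with CRISPR/Cas9, and the labels do not say which of the study's mutant lines was sequenced.

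At egg activation, as the egg passes through the oviduct, the arrested oocyte completes meiosis and begins to translate stored mRNAs, without new transcription. A rise in calcium acts through the phosphatase calcineurin and its regulator sarah (sra). The Pan gu kinase, made of the catalytic subunit png with plutonium (plu) and giant nuclei (gnu), then relieves the repression of many stored mRNAs. Wispy (wisp), a cytoplasmic poly(A) polymerase of the GLD-2 family, lengthens poly(A) tails, and orb, the CPEB protein of the germ line, binds mRNAs and controls their polyadenylation and translation. Cortex (cort) and fizzy (fzy, the fly Cdc20) activate the anaphase-promoting complex, cort in female meiosis and fzy in mitosis as well. Most of these mRNAs are made in the ovary and stored, so their level in the embryo depends in part on what was loaded into the egg and degraded since. Some levels below rise with time, among them those of fzy, cort and sra, and the source of such rises was not tested.

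The libraries were made from polyadenylated RNA selected on oligo(dT), so the amount of an mRNA and the length of its poly(A) tail cannot be told apart. In embryos, fewer cells that hold an mRNA and less mRNA per cell cannot be told apart either. Each condition has 1 table, and no difference below has a replicate check or a test. Ranges in parentheses after a level are the lower and upper bounds that Cufflinks gives for uncertainty within a library. A gene was counted as changed where its difference on the log2(FPKM + 1) scale was at least 1 in size, that is 2-fold. The depth of the tables is unknown. None of the 64 values of the 8 regulators was listed at 0, and the half-width of the interval ranged from 1.74% to 94.0% of the value.

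Nsun2, the mutated gene, had an FPKM of 0.128, 0.213 and 1.18 in knockout embryos at 0-0.5 h, 2-3 h and 4-5 h, against 2.61, 2.71 and 6.59 in wild-type embryos of the same times. The study's alleles are a small deletion and an insertion that shift the reading frame, so the mRNA level is not a direct measure of the mutation. Of 17 follicle cell and eggshell genes, 15 were at 0 in each table of 0-0.5 h, and the 17 summed to 2.39 in the knockout and 1.17 in wild type. At 2-3 h they summed to 11.9 and 2.26, of which Cp15 alone gave 11.7 in the knockout. Transcripts typical of the egg (bcd, osk, nos, gcl and pgc) summed to 1373 FPKM in knockout and 1343 FPKM in wild-type embryos at 0-0.5 h, to 510 and 114 at 2-3 h, and to 179 and 46.0 at 4-5 h. The sum of 12 zygotic blastoderm genes was lower in the knockout at each matched time, with 103 against 176 FPKM at 0-0.5 h, 328 against 474 at 2-3 h and 136 against 236 at 4-5 h. Most single genes of this set were lower in the knockout at each matched time, and some were higher. At these times in order, only slam was higher in the knockout throughout (13.6 against 6.83, 52.1 against 20.7 and 10.3 against 1.04 FPKM). In contrast, sisA was lower (9.30 against 34.1, 16.0 against 94.7 and 45.2 against 70.8 FPKM). The direction for nullo changed, with 30.6 against 59.5 FPKM at 0-0.5 h, 42.0 against 11.8 FPKM at 2-3 h and 0.285 against 0.346 FPKM at 4-5 h. For 7 genes of the later embryo the sums were 3.20 against 3.96, 4.398 against 7.252 and 35.05 against 74.965 FPKM at these times, and 3 yolk protein genes and 5 sperm and testis genes summed to at most 0.426 and 0.283 FPKM in any table. The 8 regulators are thus described in collections whose other stage markers also differ between genotypes, and the part of that difference in the results below was not tested.

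At 0-0.5 h the eggs of both genotypes held all 8 mRNAs, with knockout levels from 0.624 times (plu) to 5.26 times (cort) those of wild type. In knockout embryos 2 regulators, cort and png, were at least 2-fold higher than in wild type and 0 were at least 2-fold lower, while of 6969 genes tested 9.51% were higher and 1.85% lower by this measure. At 2-3 h, 6 of the 8, all but plu and fzy, were at least 2-fold higher in the knockout and 0 lower, against 33.1% higher and 11.3% lower of 7508 genes. At 4-5 h, 5 of the 8 were higher and 0 lower, against 11.9% and 8.03% of 8083 genes. At these 3 times in order, the 8 regulators had median differences of 0.14, 2.95 and 1.83 on the log2(FPKM + 1) scale, and all genes tested had medians of 0.12, 0.43 and -0.19. By the Cufflinks intervals, the knockout value lay above the wild-type value for 4 regulators and below it for 2 at 0-0.5 h (43.2% above and 25.8% below of all genes tested), for 6 above and 1 below at 2-3 h (55.7% and 29.3%), and for 7 above and 0 below at 4-5 h (31.9% and 44.7%). The intervals are narrow for abundant mRNAs, so most genes of the tables have separate intervals, and the fold measure is the stricter of the 2 counts.

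**Figure D1:**
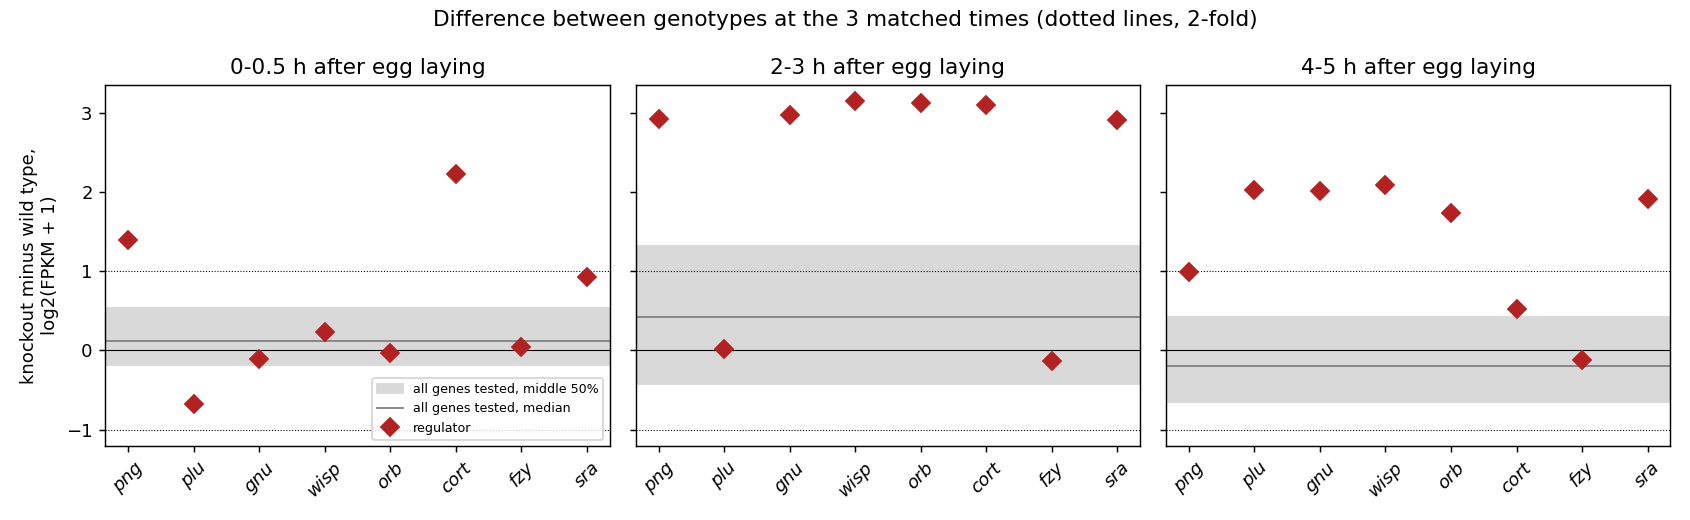
Knockout minus wild-type difference of each regulator on the log2(FPKM + 1) scale (y axis) at the 3 matched times, 1 panel a time; diamonds are regulators, the grey band and line are the middle 50% and the median of all genes tested, and dotted lines mark 2-fold. At 2-3 h 6 regulators lie together between 2.90 and 3.14 while plu and fzy lie near 0, and at 0-0.5 h cort and png stand above the rest. The FPKM ratios of these 6 run from 8.06 (gnu) to 53.1 (cort), so their closeness depends on the 1 added to each value.

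Among the subunits of the Pan gu kinase, gnu, whose protein binds and activates the kinase, was the most abundant mRNA at 0-0.5 h in both genotypes. Its FPKM in knockout embryos at the 3 times in order was 597 (587 to 607), 249 (242 to 255) and 51.9 (48.9 to 54.9). In wild-type embryos it was 641 (629 to 653), 375 (366 to 384), 30.8 (28.2 to 33.5), 6.57 (5.37 to 7.77) and 12.1 (10.3 to 13.8) at the 5 stages in order. The initial levels were close but had separate intervals, and the knockout level was 8.06 times the wild-type level at 2-3 h (7.24 to 9.05 from the bounds) and 4.30 times at 4-5 h (3.54 to 5.31). On the log2(FPKM + 1) scale the differences were -0.10, 2.97 and 2.02. The gene has a span of 981 bases on chromosome 3L, from 14795480 to 14796460 of BDGP5 (FBgn0001120).

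For png (FBgn0000826, chromosome X, 1250521 to 1251646), which encodes the kinase itself, the genotypes differed from the start. Its FPKM in knockout embryos was 20.3 (18.6 to 22.0), then 9.80 (8.63 to 10.96) and 3.08 (2.43 to 3.72). In wild-type embryos it was 7.10 (5.99 to 8.21), 3.18 (2.45 to 3.91), 0.424 (0.150 to 0.697), 1.46 (0.952 to 1.96) and 1.06 (0.608 to 1.51) at the 5 stages in order. All 3 knockout intervals lay above the wild-type interval of the same time, and the level was 2.86 times that of wild type at 0-0.5 h, 23.1 times at 2-3 h (12.4 to 73.0 from the bounds) and 2.90 times at 4-5 h. The difference at 0-0.5 h was 1.39 on the log2(FPKM + 1) scale and 0.85 after quantile normalization of the tables, which is under 2-fold. At 4-5 h it was 0.98, just under the 2-fold mark.

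Of the kinase's mRNAs, plu (FBgn0003114, chromosome 2R, 16150463 to 16151224), an ankyrin-repeat protein, had a lower level in the knockout at 0-0.5 h. It was at 0.624 times the wild-type level (0.559 to 0.696), where gnu was at 0.931 times (0.898 to 0.965). Its FPKM in knockout embryos was 83.7 (78.9 to 88.6), then 98.3 (93.1 to 104) and 53.0 (49.2 to 56.8). In wild-type embryos it was 134 (127 to 141), 133 (126 to 140), 96.7 (90.9 to 102), 13.6 (11.4 to 15.8) and 12.3 (10.1 to 14.5) in order. The intervals overlapped at 2-3 h, and the knockout level was 4.31 times the wild-type level at 4-5 h (3.39 to 5.63). In wild type the drop in plu came between 2-3 h and 3-4 h, later than that of gnu, and in the knockout the level at 4-5 h was 63.3% of the level at 0-0.5 h. The direction at 2-3 h depends on the scaling of the libraries, with a difference of 0.02 on the deposited values, -0.44 after median-of-ratios scaling, -0.19 after quantile normalization and 0.31 in TPM.

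The cytoplasmic poly(A) polymerase wisp (FBgn0260780, chromosome X, 11787978 to 11793943) had an FPKM of 59.2 (57.9 to 60.4), 58.5 (57.3 to 59.8) and 11.9 (11.4 to 12.4) in knockout embryos at the 3 times. In wild-type embryos it had 50.0 (48.7 to 51.3), 26.3 (25.4 to 27.2), 5.73 (5.30 to 6.16), 3.21 (2.89 to 3.54) and 2.02 (1.75 to 2.30) at the 5 stages. The knockout level at 2-3 h had not dropped from that at 0-0.5 h, with overlapping intervals, whereas 11.5% of the initial level was left in wild type. The knockout level was 10.2 times that of wild type at 2-3 h (9.29 to 11.3) and 5.88 times at 4-5 h (4.94 to 7.12), and 1.18 times at 0-0.5 h. Its difference of 3.14 at 2-3 h was the largest of the 8 regulators on the log2(FPKM + 1) scale and ranked 114th of the 7508 genes. That lead depends on the pseudocount, since the FPKM ratios of cort (53.1), png (23.1) and orb (18.7) were larger.

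The CPEB gene orb (FBgn0004882, chromosome 3R, 19090364 to 19106571) had nearly equal levels at 0-0.5 h, with an FPKM of 55.2 (52.6 to 57.8) in knockout and 56.7 (53.7 to 59.6) in wild-type eggs. In the knockout 14.4 (13.4 to 15.4) remained at 2-3 h and 4.39 (3.92 to 4.87) at 4-5 h. In wild type the 4 later stages had 23.3 (21.9 to 24.8), 0.772 (0.554 to 0.990), 0.382 (0.223 to 0.542) and 0.616 (0.404 to 0.829). The knockout level was therefore 18.7 times that of wild type at 2-3 h (13.6 to 27.8) and 7.13 times at 4-5 h (4.73 to 12.05). The difference of 1.74 at 4-5 h became 0.74, under 2-fold, when the pseudocount was 5. In wild type orb had the deepest loss of the 8 by 2-3 h, with a change of -5.02 on the log2(FPKM + 1) scale that ranked 21st from the lowest among 7453 genes.

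**Figure D2:**
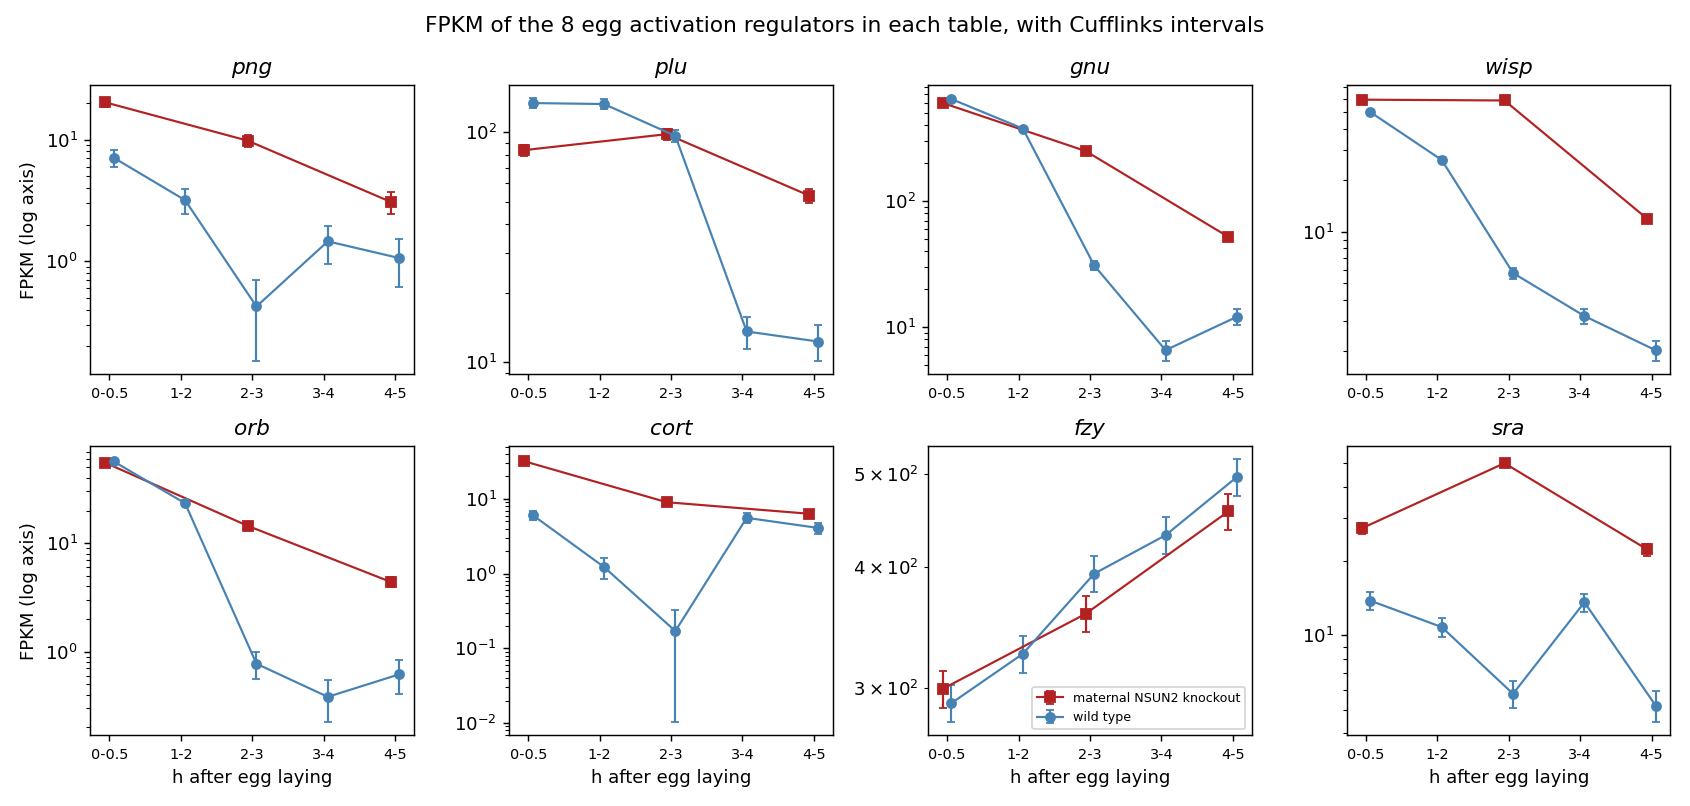
FPKM of each regulator (log y axis, a scale per panel) against the collection window in h after egg laying (x axis) in maternal NSUN2 knockout (red squares) and wild-type embryos (blue circles), 1 table per point with the Cufflinks bounds as bars. The gnu and orb curves start together and part by 2-3 h, png, cort and sra start apart, plu starts lower in the knockout, meets the wild-type curve at 2-3 h and is higher at 4-5 h, and fzy goes up in both genotypes.

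The activators of the anaphase-promoting complex had courses unlike each other. The FPKM of cort (FBgn0000351, chromosome 2L, 6674682 to 6676635) in knockout embryos was 32.1 (30.0 to 34.2), then 9.05 (8.07 to 10.02) and 6.34 (5.53 to 7.14). In wild-type embryos it was 6.09 (5.21 to 6.97), 1.23 (0.852 to 1.61), 0.170 (0.0102 to 0.330), 5.59 (4.78 to 6.40) and 4.09 (3.35 to 4.83) in order. The knockout load was 5.26 times the wild-type load (4.30 to 6.55), a difference of 2.22 that ranked 102nd of the 6969 genes. By 2-3 h this ratio was 53.1, but the wild-type value was so low that the bounds allow from 24.4 to 980, and the difference on the log2(FPKM + 1) scale was 3.10. In wild type cort came back to 91.7% of its initial level at 3-4 h, so that at 4-5 h the knockout level was only 1.55 times that of wild type (1.14 to 2.13).

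The Cdc20 gene fzy (FBgn0001086, chromosome 2L, 16310929 to 16313097) showed no such course. Its FPKM in knockout embryos was 299 (286 to 312), 358 (342 to 373) and 457 (438 to 477), against 289 (276 to 302), 394 (377 to 411) and 496 (475 to 518) in wild-type embryos of the same 3 times. Wild-type embryos had 325 (311 to 340) at 1-2 h and 432 (413 to 451) at 3-4 h. The intervals of the genotypes overlapped at 0-0.5 h and 4-5 h, and the knockout interval lay below at 2-3 h by a small margin, with a ratio of 0.908 (0.832 to 0.992). That direction depends on the scaling, since the difference of -0.14 at 2-3 h was -0.60 after median-of-ratios scaling, 0.15 in TPM and 0.09 after quantile normalization.

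The calcineurin regulator sra (FBgn0086370, chromosome 3R, 12012656 to 12023315) was the regulator whose knockout level went up between 0-0.5 h and 2-3 h by the largest factor. Its FPKM in knockout embryos was 27.1 (25.7 to 28.5), 49.8 (47.9 to 51.7) and 22.3 (21.0 to 23.5), and all 3 values were above every wild-type value. In wild-type embryos it was 13.8 (12.7 to 14.96), 10.8 (9.82 to 11.8), 5.79 (5.05 to 6.53), 13.6 (12.5 to 14.7) and 5.18 (4.44 to 5.92), so the wild-type level was down at 2-3 h, back at 3-4 h and down again at 4-5 h. The knockout level was 1.97 times that of wild type at 0-0.5 h (1.72 to 2.26), 8.61 times at 2-3 h (7.34 to 10.2) and 4.30 times at 4-5 h (3.55 to 5.30). Its differences on the log2(FPKM + 1) scale were 0.93, 2.90 and 1.91, and the first was 0.46 after quantile normalization.

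The change in level from 0-0.5 h was then compared within each genotype. Between 0-0.5 h and 2-3 h, 3 regulators, gnu, cort and orb, were at least 2-fold lower in the knockout (18.0% of all genes tested) and 6, all but plu and fzy, in wild type (31.2%). By 4-5 h it was 5 in the knockout (23.7%) and 6 in wild type (24.8%). In wild type 2 regulators, cort and orb, were already 2-fold lower at 1-2 h (8.21%), and 5 were at 3-4 h (23.4%). As a share of the FPKM at 0-0.5 h of the same genotype, png stood at 48.3% in the knockout and 5.97% in wild type at 2-3 h, gnu at 41.7% and 4.81%, wisp at 98.9% and 11.5%, cort at 28.2% and 2.79%, and orb at 26.1% and 1.36%. For sra the shares were 184% and 41.9%, for plu 117% and 72.0%, and for fzy 120% and 136%. Over the 5583 genes with FPKM of at least 5 at 0-0.5 h in both genotypes, the median share was 100.3% in the knockout and 66.7% in wild type. Among wild-type values, those of 5 regulators, png, gnu, wisp, cort and orb, were thus below the lower quartile of such genes (33.2%), and among knockout values those of 4, the same without wisp, were below it (59.6%). The count for sra in wild type depends on the setting, since its change of -1.12 was -0.74 after median-of-ratios scaling and -0.31 after quantile normalization.

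By 4-5 h the shares of png were nearly equal, 15.2% in the knockout and 14.9% in wild type. They were 63.3% and 9.16% for plu, 8.70% and 1.88% for gnu, 20.1% and 4.04% for wisp, 7.96% and 1.09% for orb, and 82.1% and 37.5% for sra. The order was the other way for cort, with 19.8% and 67.2%, and for fzy, with 153% and 172%. Taking the knockout change from 0-0.5 h minus the wild-type change, 5 of the 8 differences were at least 1 at 2-3 h and 0 were at most -1 (23.9% and 12.2% of 7663 genes), led by orb (3.16), gnu (3.07) and wisp (2.91). At 4-5 h 4 were at least 1 (11.0% of 8309 genes), led by plu (2.70) and gnu (2.12), and 1, cort, was at most -1 (19.0%), with -1.70. These differences use the same 0-0.5 h tables at both times. After quantile normalization that of cort was -0.88. With a pseudocount of 5, that of png at 2-3 h was 0.38 in place of 1.53, and that of orb at 4-5 h was 0.78 in place of 1.77.

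**Figure D3:**
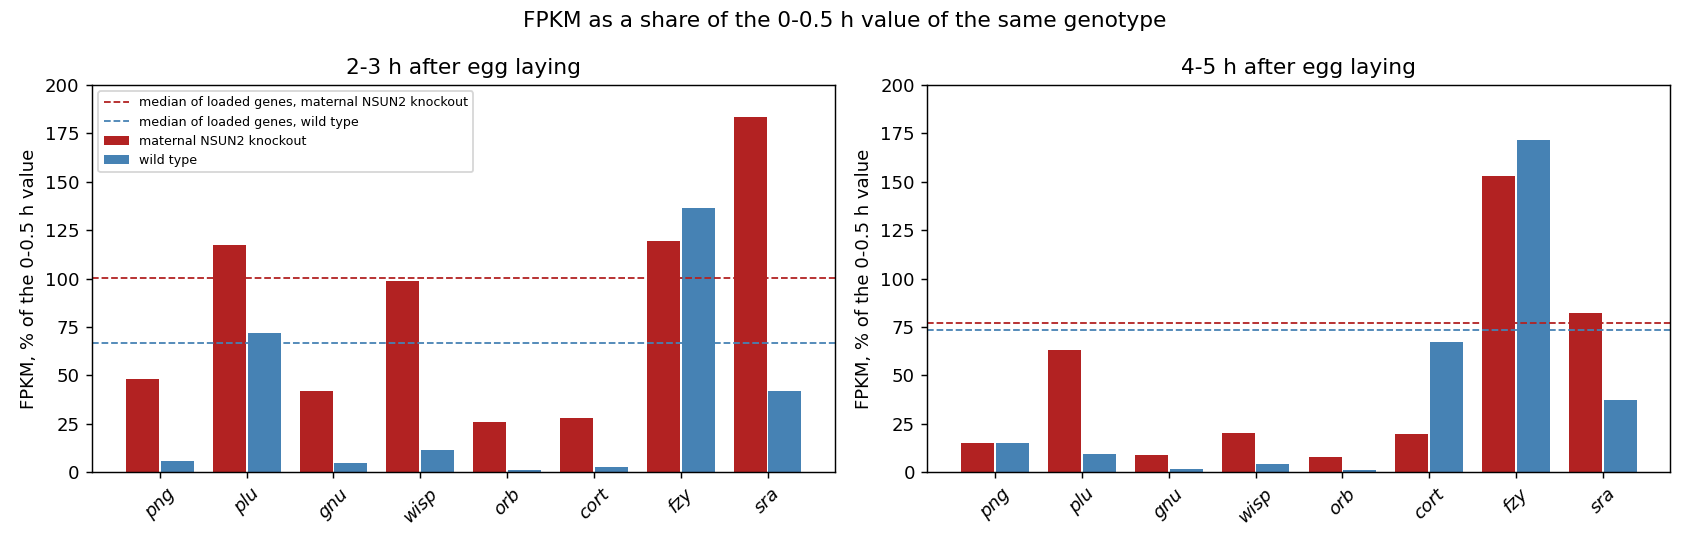
FPKM of each regulator at 2-3 h and 4-5 h as a percentage of its FPKM at 0-0.5 h in the same genotype (y axis), for maternal NSUN2 knockout (red bars) and wild-type embryos (blue bars), with dashed lines at the medians of the 5583 genes with FPKM of at least 5 at 0-0.5 h in both genotypes. At 2-3 h the red bar is the higher for 7 regulators and the lower for fzy, and at 4-5 h it is the lower for cort and fzy.

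As the stage markers differed between genotypes, the knockout levels were also placed on the wild-type course. At 2-3 h the knockout level of png (9.80), wisp (58.5), cort (9.05) and sra (49.8) was above all 5 wild-type values, so no wild-type stage matched it. These 4 were already above every wild-type value in the knockout at 0-0.5 h (20.3, 59.2, 32.1 and 27.1 FPKM in that order). The share of all genes above every wild-type value was not counted at any time. The other 4 had a match on the wild-type course, by linear interpolation of log2(FPKM + 1) between the middles of the windows, at 1.67 h for gnu, 1.67 h for orb, 2.00 h for fzy and 2.45 h for plu. The age of fzy depends most on the scaling, from 1.19 h after median-of-ratios scaling to 3.00 h in TPM. A comparison of knockout embryos of 2-3 h with wild type of 1-2 h was added after the values were seen. In it 4 regulators, png, wisp, cort and sra, were at least 2-fold higher in the knockout (19.3% of 7152 genes) and 0 were 2-fold lower (5.40%). The differences of the other 4 on the log2(FPKM + 1) scale were under 2-fold. They were -0.43 for plu (98.3 against 133 FPKM), -0.59 for gnu (249 against 375 FPKM), -0.66 for orb (14.4 against 23.3 FPKM) and 0.14 for fzy (358 against 325 FPKM). At 4-5 h cort and sra were above every wild-type value. The other 6 matched wild-type ages of 1.52 h (png), 2.04 h (wisp), 2.08 h (orb), 2.29 h (gnu), 2.81 h (plu) and 3.91 h (fzy), each below the 4.5 h at the middle of the window. That of fzy was 2.10 h after median-of-ratios scaling. Ages were not computed over all genes. For an mRNA that falls in wild type, a higher level in the knockout gives an earlier age. The ages of png, wisp, orb, gnu and plu thus restate their differences between genotypes. Such an age matches FPKM alone, so it also depends on the level at 0-0.5 h, which differed between genotypes for some regulators. For png the share of the 0-0.5 h level left at 4-5 h was nearly equal, 15.2% in the knockout and 14.9% in wild type, despite the age of 1.52 h. Cortex in the knockout at 4-5 h exceeded the highest wild-type value by little, 6.34 against 6.09, with overlapping intervals.

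Ratios between 2 mRNAs of the same table do not depend on scalings that multiply a whole table by a factor, such as median-of-ratios and TPM. Quantile normalization can change them, and the ratios here are of the deposited values. FPKM is already divided by transcript length. At 0-0.5 h gnu was 29.4 times as abundant as png in the knockout (26.7 to 32.7 from the bounds) and 90.4 times in wild type (76.7 to 109). Later, at 2-3 h, it was 25.4 (22.1 to 29.6) in the knockout and 72.8 (40.5 to 223) in wild type. The ratio of plu to png was 4.13 (3.59 to 4.76) in the knockout and 18.9 (15.5 to 23.6) in wild type at 0-0.5 h, and 10.03 (8.49 to 11.99) and 228 (130 to 683) at 2-3 h. At 4-5 h the ranges of both ratios overlapped between genotypes. The mRNAs of the 3 kinase subunits were therefore in other proportions in the knockout tables of 0-0.5 h and 2-3 h, with separate ranges.

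The same holds for the activators of the anaphase-promoting complex. At 0-0.5 h cort stood at 10.7% of fzy in the knockout (9.60% to 11.9%) and at 2.11% in wild type (1.73% to 2.53%). At 2-3 h it stood at 2.53% (2.16% to 2.93%) and 0.0432% (0.00249% to 0.0877%), and at 4-5 h at 1.39% (1.16% to 1.63%) and 0.825% (0.647% to 1.02%), with separate ranges at all 3 times. For the mRNAs of the polyadenylation factors, the ratio of wisp to orb was 1.07 (1.00 to 1.15) in the knockout and 0.883 (0.818 to 0.955) in wild type at 0-0.5 h, and 4.06 (3.72 to 4.45) and 7.42 (5.35 to 11.1) at 2-3 h. In both genotypes the share of orb left was thus smaller than that of wisp.

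**Figure D4:**
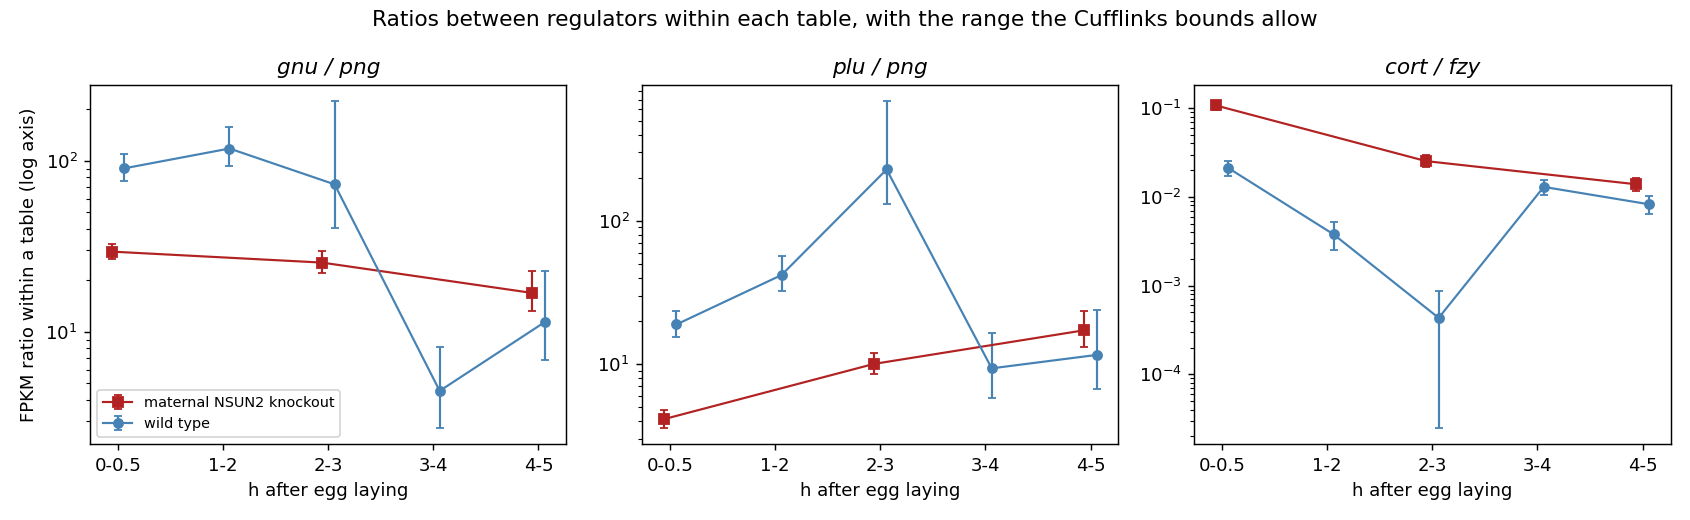
FPKM ratios within a table (log y axis) of gnu to png, plu to png and cort to fzy against the collection window in h after egg laying (x axis), for maternal NSUN2 knockout (red squares) and wild-type embryos (blue circles); bars span the range that the Cufflinks bounds of both values allow. The red points lie below the blue ones at 0-0.5 h and 2-3 h for the first pair of ratios and above them at all 3 matched times for cort to fzy.

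In the order of levels, gnu led in both genotypes at 0-0.5 h, followed by fzy and plu. At 2-3 h fzy led in both, with gnu ahead of plu in the knockout (249 against 98.3 FPKM) and plu ahead of gnu in wild type (96.7 against 30.8 FPKM). Neighbours in that order had overlapping intervals for png and cort in the knockout, and for sra and wisp, orb and png, and png and cort in wild type. Over the 8 tables, which include both genotypes and all stages, the Pearson correlation of log2(FPKM + 1) between 2 regulators had a median of 0.52 over the 28 pairs. The highest values were 0.98 for gnu and orb, 0.96 for gnu and wisp and 0.94 for wisp and orb, and the correlations of fzy with the other 7 were all negative, down to -0.90. The subunits png and plu had 0.48, and plu and cort -0.08. These correlations are over 8 points that share the stages, and they carry no test.

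Other genes with the most similar course were named by the same measure among 6284 genes with FPKM of at least 10 in at least 1 table. For gnu they were Pxt, olf186-M and Apc7 (r = 0.993 each), the last being a subunit of the anaphase-promoting complex. For orb they were Jheh2 (0.999), zpg (0.997) and fray (0.997), of which zpg encodes the germ line innexin. For wisp they were Cyp6v1, Syx13 and Ate1 (0.994 to 0.998), for png CG11727, CG3077 and Dlic (0.993 to 0.996), for plu CG12129, CG10428 and CG31633 (0.997 to 0.998), and for sra Tsc1, Cdk12 and CG11334 (0.986 to 0.992). The course of fzy was closest to CG12269, JHDM2 and msb1l (0.986 to 0.992). Values of 0.95 or more were common for plu (483 genes), gnu (330), orb (250) and wisp (207) and scarce for cort (11), whose closest genes, Kap3, Tango14 and CG3308, had 0.962 each.

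The regulators were next set beside 5 lists of genes that act with them. Of the anaphase-promoting complex and its regulators, 12 of 14 matched genes passed the filter (FPKM of at least 1 in either table) at 2-3 h, and 7 were at least 2-fold higher in the knockout and 0 lower, with a median difference of 1.23. Rca1, an inhibitor of the complex, had an FPKM of 33.1 in knockout and 0.669 in wild-type embryos at 2-3 h and, like cort, a higher level in the knockout at 0-0.5 h (41.9 against 6.42). Apc7 had 35.2 against 3.80 FPKM at 2-3 h, and the core subunit cdc16 had 78.3 against 134 FPKM, which is under 2-fold. At 4-5 h 1 of 12 was higher and 0 were lower (11.9% and 8.03% of all genes), with a median of -0.45 (-0.19 over all genes). Of the calcium and calcineurin genes, 7 of 10 passed, and 3 were higher and 0 lower at 2-3 h. CanB2, a regulatory subunit of calcineurin, had 186 FPKM in knockout and 69.5 FPKM in wild-type embryos, the catalytic subunit CanA-14F had 5.16 and 0.623 FPKM, and calmodulin (Cam) 1562 and 2508 FPKM. At 4-5 h 3 of the 7 were higher and 0 lower, beside 11.9% and 8.03% of all genes, with a median of 0.75.

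Of the genes for polyadenylation and CPEB partners, 9 of 10 passed, and 2 were higher and 1 lower at 2-3 h, with a median of 0.23. The lower one was hrg, the canonical poly(A) polymerase, with 88.6 FPKM in knockout and 301 FPKM in wild-type embryos, against 53.1 and 49.0 at 0-0.5 h, and in wild type its level was thus higher at 2-3 h than at 0-0.5 h, where that of wisp was lower. Fmr1, a translational repressor, had 34.2 and 4.80 FPKM at 2-3 h, Fip1 had 16.8 and 8.86 FPKM, and Sym had 12.1 and 18.1 FPKM. Of the 9 genes of this list that passed at 4-5 h, 0 were higher and 0 lower, with a median of -0.16. Of the 11 genes listed as translational repressors, a label not checked for each gene, 8 were higher and 0 lower at 2-3 h (median 1.42). Among the higher ones were aret (27.9 against 1.33 FPKM), the Bruno protein that represses oskar, and BicC (8.83 against 0.315 FPKM). The RNA-binding protein genes Pabp2 and bol had 156 and 245 FPKM and 7.13 and 8.54 FPKM. At 4-5 h 7 of the 11 were higher and 0 lower, beside 11.9% and 8.03% of all genes.

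Of the 20 genes of oocyte maturation and the meiotic cell cycle, 11 were higher and 0 lower at 2-3 h, with a median of 1.51. The kinase gene mos had 15.2 FPKM in knockout and 0.724 FPKM in wild-type embryos, and CycB, whose translation at egg activation requires the Pan gu kinase, had 1423 and 138 FPKM after 1083 and 475 FPKM at 0-0.5 h. The CDK subunit gene Cks30A had 65.4 and 102 FPKM, and polo 610 and 832 FPKM, both under 2-fold. At 4-5 h 3 of 20 were higher and 0 lower, a share near the 11.9% and 8.03% of all genes. In every list the 2-fold counts at 2-3 h stand beside 33.1% higher and 11.3% lower over all genes tested.

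**Figure D5:**
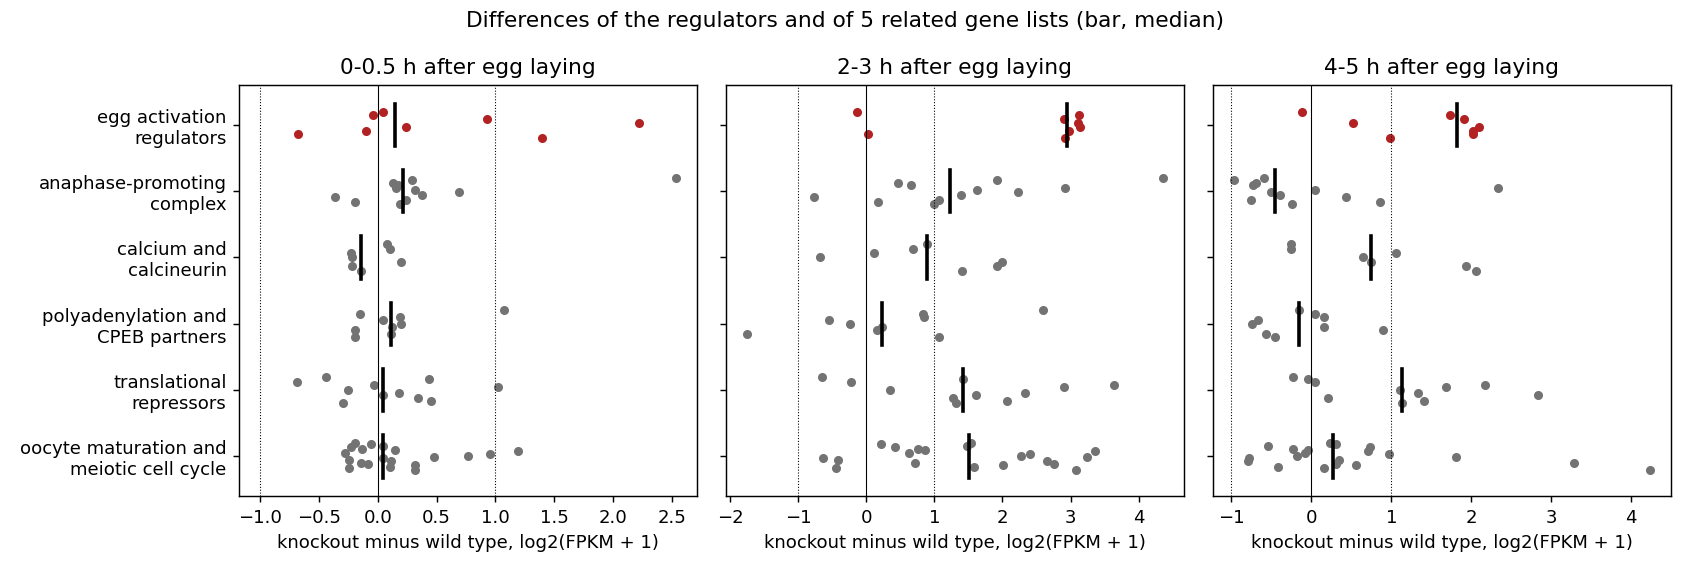
Knockout minus wild-type difference on the log2(FPKM + 1) scale (x axis) of the 8 egg activation regulators (red) and of the genes of 5 related lists that passed the filter (grey), at the 3 matched times; black bars are medians and dotted lines mark 2-fold. At 2-3 h the median is 2.95 for the regulators and between 0.23 and 1.51 for the lists.

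No protein, promoter or transcript sequence of the 8 genes was used here. In the gene models of the tables, the last 99 bases at an end of cort overlap CG34310 and 69 bases of fzy overlap cact, and in the annotation of BDGP6 both pairs lie on opposite strands. The libraries kept strand, and the reads were mapped strand-specifically. The FPKM of CG34310 was 261, 230 and 125 in the knockout at the 3 times, against 230, 120 and 85.1 in wild type, so it did not come back at 3-4 h as cort did in wild type (85.5 FPKM at 3-4 h). No other listed gene overlaps a regulator.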

How the data were processed

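mRNA-seq tables of 3 maternal NSUN2 knockout and 5 wild-type collections were used, 1 table per condition, with conditions taken from the sample titles. Per the submitters' processing notes and the paper's methods, the authors demultiplexed with bcl2fastq 2.17, cut adapters with cutadapt 1.13, mapped read pairs strand-specifically with TopHat2 to BDGP5, and passed unique alignments to Cufflinks, whose gene FPKM and its bounds they deposited. Since FPKM is relative to the total of its own table, abundant genes that change shift the rest. Replicates were averaged per the methods, but nothing in a table says if it is 1 library or a mean. They hold no fragment counts, so the depth is unknown. Spike-in RNAs named in the labels are not among the genes listed, and no scaling to them was run.

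From the deposited values, log2(FPKM + 1) was computed. Counts over all genes took those at 1 FPKM or above in either table, and a difference of at least 1 (2-fold) was counted. No test was made, since there is 1 table per condition. Positions are those of the tables, written from base 1. The members and lists were chosen with earlier results of these data known. Of 116 genes in the lists and marker sets, 110 were matched by symbol, 4 through the gene ID of the current symbol, and Cdc26 and cup were not matched. Members were left out of the lists. All 8 regulators are named. Of each list, the 2 genes with the largest positive and the 2 with the largest negative difference at 2-3 h are named, among those at 5 FPKM or above in either genotype, and for each regulator the 3 genes with the highest Pearson r. Nsun2 is named as the targeted gene. The genes of the stage and cell type markers were fixed as lists. Alternatives were other pseudocounts, filters, fold thresholds and scalings (median-of-ratios, TPM, quantile). Python 3.11.15, numpy 2.4.6, pandas 2.3.3 and matplotlib 3.10.9 were used, and the steps were tested on simulated data.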

Additional observations from a re-analysis of the deposited data

Results flagged for a closer look

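In 4 cases the level of a regulator moved one way in the knockout table and the other way in the wild-type table, with 1 table at each end, and the difference between genotypes was not tested. Between 0-0.5 h and 2-3 h, plu changed by 0.23 in the knockout and by -0.47 in wild type on the log2(FPKM + 1) scale, and sra by 0.85 in the knockout and by -1.12 in wild type. Between 2-3 h and 4-5 h, png changed by -1.40 in the knockout and by 0.53 in wild type, and cort by -0.45 in the knockout and by 2.12 in wild type. Both cases after 2-3 h start from wild-type values at 2-3 h of 0.424 FPKM for png and 0.170 FPKM for cort, which have the widest intervals of their course (half-widths of 64.6% and 94.0% of the value).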

How the results depend on the processing

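Each result is a description of 1 table per condition, so none of these settings tests it, and for the same reason no paired analysis was possible. The 6 regulators counted as higher in the knockout at 2-3 h and the 5 at 4-5 h kept that direction under median-of-ratios scaling, TPM and quantile normalization. A pseudocount cannot change the direction of a difference between 2 values, so it is no check of direction. The number higher at 2-3 h was 6 under each pseudocount and scaling. At 4-5 h it was 4 with a pseudocount of 5 or a minimum of 5 FPKM, in place of 5. It was 6 with a pseudocount of 0.1, after quantile normalization and with a 1.5-fold threshold. The median difference over all 8 regulators ranged from 1.60 (pseudocount of 5) to 3.22 (TPM) at 2-3 h, and at 4-5 h it was 1.00 with a pseudocount of 5, in place of 1.83. At 2-3 h the scalings shifted the median difference of all genes by -0.42 (median-of-ratios and quantile) and 0.26 (TPM), and at 4-5 h by at most 0.04. At 0-0.5 h 1 regulator, not 2, was higher after quantile normalization and with a 3-fold threshold, and 1 was lower with a 1.5-fold threshold. For wild type at 1-2 h, the number lower was 1 with a pseudocount of 5, after quantile normalization and with a 3-fold threshold, 4 in TPM and 5 with a 1.5-fold threshold, in place of 2. With a 1.5-fold threshold 1 regulator was higher in wild type at 4-5 h, and 1 each in the knockout at 2-3 h and 4-5 h than at 0-0.5 h, in place of 0, and quantile normalization also gave 1 in the knockout at 2-3 h. The number whose course at 4-5 h was lower by at least 1 in the knockout was 0 after quantile normalization, in place of 1. In TPM and after quantile normalization 1 regulator, not 2, was above all wild-type tables at 4-5 h. With wild type of 1-2 h in place of 2-3 h, chosen after seeing the data, the difference was -0.59 for gnu and -0.66 for orb, and 4 regulators were higher in place of 6. At 2-3 h the pseudocount moved the difference of cort between 1.44 (5) and 5.08 (0.1), that of png between 1.45 and 4.24 and that of orb between 1.75 and 4.06. The cause of these shifts was not tested. Of 210 such comparisons of counts and medians 195 stayed within 1.5 times (0.1 for the median correlation). Many of these were counts of 0 that stayed at 0, so the share says little about the other counts. Of 486 values of single regulators 297 moved by less than the Cufflinks bounds allow (0.25 h for ages), 187 moved by more, and 2 that had been counted as 2-fold changed sign. Sign changes of smaller differences are not among these 2. They include fzy and plu at 2-3 h under other scalings, the course difference of cort at 2-3 h (0.88, and -0.30 with a pseudocount of 5) and the knockout change of sra by 4-5 h (-0.27, and 0.35 after quantile normalization). The depth of the tables is unknown, and wild-type values of png, cort and orb at 2-3 h are below 1 FPKM.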

Other observations

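Beyond the genes named by rule, 3 mRNAs of the related lists had higher levels in the knockout than in wild type at 4-5 h, and they were picked after their values were seen. The FPKM of mtrm, the Matrimony protein that binds Polo in the oocyte, was 848, 303 and 116 in the knockout at 0-0.5 h, 2-3 h and 4-5 h, against 681, 35.2 and 5.20 in wild type. That of smg, the Smaug repressor whose translation depends on the Pan gu kinase, was 539, 542 and 392 in the knockout, against 524, 176 and 54.1 in wild type. That of twe, the meiotic Cdc25 phosphatase, was 213, 238 and 165 in the knockout, against 235, 145 and 16.1 in wild type, so the genotypes were further apart at 4-5 h than at 2-3 h. The differences at 4-5 h were 4.23, 2.83 and 3.28 on the log2(FPKM + 1) scale.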
